A study of Mus musculus with 4 samples.

Results

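Smco4 and 4931406C07Rik, together with Taf1d, Cep295 and Med17, lie within 284.9 kb of mouse chromosome 9. Their messenger RNA was examined in the ileum, where the small intestine ends, after activation of the pregnane X receptor (PXR). The genes were selected by symbol from a table of 11489 genes. Smco4 and 4931406C07Rik had been chosen from their higher values under treatment, and the other genes because they lie close by. The levels of these members in the treatment comparison are therefore a description and are given without a test. Of the 5 members, 4 had values, in 7 transcript rows. Cep295 had no row and was not analysed here. The question was whether the higher level stopped at Smco4 and 4931406C07Rik or reached the genes around them.

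All mice were wild-type C57BL/6J animals of 8 weeks, and the number of mice behind each library was not given. The methods name male mice. The vehicle group is labelled DMSO and had 2 libraries, from mice injected 3 times at intervals of 8 h. The PCN group also had 2 libraries, from mice given 40 mg/kg pregnenolone-16α-carbonitrile (PCN) by intraperitoneal injection 3 times at intervals of 8 h and killed 8 h after the last dose. The labels give the solvent of PCN as a mixture of DMSO and corn oil. Because no label ties a library to its own animal, the spread between libraries may be technical. Levels are FPKM, fragments scaled to transcript length and to the mapped fragments of the library, as deposited, summed over the rows of a gene. They are given as mean ± SD with n = 2 per group.

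The libraries held the markers of ileum. Summed over 8 genes of the ileal epithelium, FPKM were 14264 and 12416 in vehicle against 9638 and 9472 in PCN. Most of this gap lay in Fabp6, the gene of the bile acid binding protein (8059 and 6757 against 4228 and 3652), while the groups overlapped for the bile acid transporter gene Slc10a2 (201.5 and 154.7 against 219.2 and 159.1). Of the 8 genes, 5 were lower in both PCN libraries than in both vehicle libraries and 0 were higher, against 19.1% and 21.1% of all genes. The sum of 4 Paneth cell markers was 9688 to 10574 in the 4 libraries. Of 6 colon markers 4 had values, with a sum of 219 and 240 in vehicle against 378 and 307 in PCN. The carbonic anhydrase genes Car1 (22.3 and 17.0 against 105.8 and 60.7) and Car4 (112.1 and 143.8 against 207.1 and 189.9) were higher in both PCN libraries. Mettl7b was lower in both (53.6 and 51.3 against 35.9 and 33.5), and the groups overlapped for Slc26a3 (31.2 and 27.8 against 28.8 and 22.8). Summed levels of 8 smooth muscle markers were 398 and 804 in vehicle against 226 and 280 in PCN, and each of the 8 was lower in both PCN libraries than in both vehicle libraries, as were 19.1% of all 11103 genes tested. In whole tissue, fewer cells of a type and less RNA per cell cannot be told apart. The part of these markers in the members' values was not tested.

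PCN is a synthetic steroid that activates PXR in mice. PXR is a nuclear receptor that senses bile acids and foreign compounds, and with its partner RXR it binds to paired copies of a short DNA word and raises transcription of genes for drug oxidation, conjugation and export. Smco4 encodes a small membrane protein with a coiled-coil domain, and its role in the gut is little known. 4931406C07Rik is the mouse counterpart of human C11orf54, which encodes an ester hydrolase. Taf1d encodes a subunit of selectivity factor 1, the complex that brings RNA polymerase I to ribosomal RNA genes, and small nucleolar RNAs lie in its introns. Cep295 encodes a centriole protein needed to turn a new centriole into a centrosome. Med17 encodes a subunit of the head of Mediator, which links transcription factors to RNA polymerase II.

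In the GENCODE M21 annotation of the mm10 genome, Med17 (ENSMUSG00000031935.9) is on the minus strand of chromosome 9 at 15260351 to 15279931. 4931406C07Rik (ENSMUSG00000031938.15) is on the minus strand at 15283337 to 15306448, and Taf1d (ENSMUSG00000031939.16) on the plus strand at 15306214 to 15316991, so these genes start head to head and overlap by 235 bases. Cep295 (ENSMUSG00000046111.17) follows on the minus strand at 15316915 to 15357788, within the single locus (15283336 to 15357788) that the file gives for 4931406C07Rik and Taf1d. Smco4 (ENSMUSG00000058173.12) is on the plus strand at 15493432 to 15545260, and 135.6 kb separate the starts of Cep295 and Smco4. The deposited rows of 4931406C07Rik were matched to transcripts with different starts. One, matched to ENSMUST00000034414, starts at 15301556, inside the gene, and is called the inner-start transcript here. The other, matched to ENSMUST00000178977, starts at 15306167, only 47 bases from the start of Taf1d, and is called the outer-start transcript. Their starts lie 4611 bases apart. Both carry the same 945 coding bases and share 2519 exonic bases, and they differ outside the coding part (43 bases particular to the inner-start and 131 to the outer-start transcript).

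The promoter windows of both 4931406C07Rik starts are shown because the rows matched to them had unequal differences between the groups. That of Vstm5 is shown because it was the neighbour with the highest positive difference. The window at 15520859, the start of the transcript matched to the Smco4 row, was not examined here. The Smco4 window shown belongs to another start, to which no row was matched. Sequences are from RefSeq (GRCm38.p6), 250 bases before and 50 bases from each start onwards, written 5′ to 3′ along the strand of the gene. Capitals mark the PXR half-site words searched for, AGGTCA and AGTTCA and, on the other strand, TGACCT and TGAACT. The RefSeq inner start, at 15301607, is a little upstream of that in GENCODE.
4931406C07Rik inner start, chr9:15301558-15301857, minus strand: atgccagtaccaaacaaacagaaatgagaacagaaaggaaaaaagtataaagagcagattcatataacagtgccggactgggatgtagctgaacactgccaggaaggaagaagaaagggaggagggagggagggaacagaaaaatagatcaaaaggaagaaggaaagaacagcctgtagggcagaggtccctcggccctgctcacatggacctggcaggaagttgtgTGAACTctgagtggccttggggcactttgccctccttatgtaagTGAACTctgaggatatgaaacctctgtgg
4931406C07Rik outer start, chr9:15306118-15306417, minus strand: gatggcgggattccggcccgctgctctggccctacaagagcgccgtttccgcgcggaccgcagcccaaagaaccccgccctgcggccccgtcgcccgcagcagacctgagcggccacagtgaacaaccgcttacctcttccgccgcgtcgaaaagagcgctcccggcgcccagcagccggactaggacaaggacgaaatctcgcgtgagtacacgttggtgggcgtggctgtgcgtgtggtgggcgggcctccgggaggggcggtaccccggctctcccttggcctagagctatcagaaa
Smco4 second RefSeq start, chr9:15504968-15505267, plus strand: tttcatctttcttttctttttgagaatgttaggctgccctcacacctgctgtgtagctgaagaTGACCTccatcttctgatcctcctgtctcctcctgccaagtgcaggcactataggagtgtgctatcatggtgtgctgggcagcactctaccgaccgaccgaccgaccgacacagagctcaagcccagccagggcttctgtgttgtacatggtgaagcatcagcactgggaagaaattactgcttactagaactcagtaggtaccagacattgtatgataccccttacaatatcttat
Vstm5, chr9:15238795-15239094, plus strand: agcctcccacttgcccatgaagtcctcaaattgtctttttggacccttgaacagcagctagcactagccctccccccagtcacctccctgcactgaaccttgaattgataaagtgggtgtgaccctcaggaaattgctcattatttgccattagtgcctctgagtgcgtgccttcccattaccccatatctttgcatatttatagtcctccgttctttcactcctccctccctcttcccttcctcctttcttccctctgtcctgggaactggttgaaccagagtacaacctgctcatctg
The inner-start window held TGAACT at 2 places. Its first base lay 23 bases before the RefSeq start of 15301607 and at position 22 with that start as position 1. Both places are upstream of the GENCODE start, 15301556. Windows with at least 2 copies of AGTTCA or TGAACT made up 1.53% of 32851 RefSeq promoter windows, a share that counts only the word found here. At least 2 half-sites of any of the words were found in 5.23%. The search covered 8 windows of the members and that of Vstm5, so these shares do not measure how unusual the finding is. The outer-start window, a further 4931406C07Rik window, the windows of Taf1d, Med17, Cep295 and Vstm5 and the first Smco4 window, at 15493432, held 0. The second Smco4 window, with its start at 15505218, held 1, and 27.7% of all windows held at least 1. Neither Smco4 window is that of the matched transcript, and the start of the measured RNA itself was not given. Pairs of half-sites in the same direction 3, 4 or 5 bases apart, or pointing away from each other 6 or 8 bases apart, were found in 0.1% of all windows and in 0 of the windows of these genes. The windows also differed in CpG dinucleotides, with 2 at the inner start, 34 at the outer start, 19 at Taf1d and 2 at Vstm5, against a median of 7. A match of letters does not show that PXR binds there, and sequence outside these windows was not searched.

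4931406C07Rik was the most abundant of the members and was higher in PCN. It had 70.2 and 55.8 FPKM in the vehicle libraries against 238.7 and 225.8 in the PCN libraries. The groups did not overlap, and the lowest PCN value was 3.22 times the highest vehicle value. Mean levels were 63.0 ± 10.2 in vehicle and 232 ± 9.09 in PCN, a ratio of 3.69, with a difference of 1.87 ± 0.12 (SE) on the log2(FPKM + 1) scale. By this difference, for which it had been chosen, it ranked 27 of 11103 genes. With the mean smooth muscle level as a covariate the difference was 1.48. That level, on the log2 scale, was 5.347 and 6.272 in the vehicle libraries and 4.561 and 4.804 in the PCN libraries. Because it does not overlap between the groups, such a fit cannot separate it from the treatment.

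**Figure D1:**
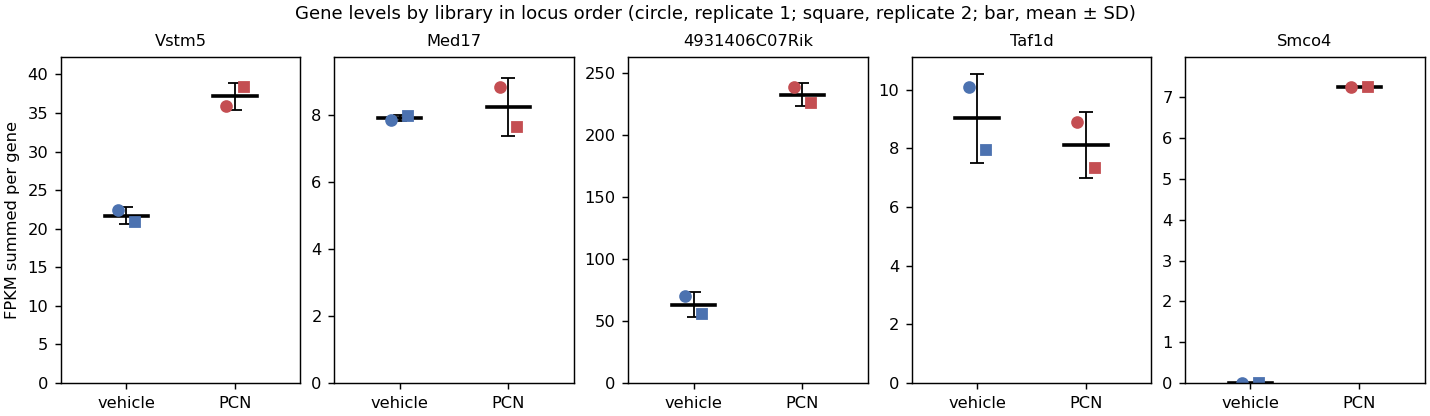
FPKM summed per gene in each library for Vstm5, Med17, 4931406C07Rik, Taf1d and Smco4, in their order along the chromosome, with each gene on its own axis from 0; circles are replicate 1, squares replicate 2, and bars the mean ± SD (n = 2). Groups are apart for Vstm5, 4931406C07Rik and Smco4 and overlap for Med17 and Taf1d.

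The higher level of 4931406C07Rik was shared unequally by its transcript rows. The inner-start transcript had 35.7 and 34.8 FPKM in vehicle against 182.7 and 173.4 in PCN, a ratio of means of 5.05. The outer-start transcript had 34.6 and 21.0 FPKM in vehicle against 56.0 and 52.4 in PCN, a ratio of 1.95. Both rows were higher in both PCN libraries, as were 19.8% of 18397 rows tested, and 0.00544% of rows passed the threshold of an adjusted p of 0.05. The rule used this contrast, and nothing is read from these counts. The inner-start row made up 50.8% and 62.3% of the gene in vehicle and 76.5% and 76.8% in PCN, and its ratio to the outer-start row was 1.03 and 1.66 in vehicle against 3.26 and 3.31 in PCN. On the log2 scale the shift of the inner-start against the outer-start row was 1.33 ± 0.37 (SE), higher in both PCN libraries than in both vehicle libraries. This measure was chosen after the transcript values were seen. It did not pass the threshold over all 12044 rows of genes with several rows (limma adjusted p = 0.674; 0 rows or 0% passed, and 750 had an unadjusted p under 0.05). A shift of at least this size in either direction was found in 9.61% of these rows. A gene with 2 rows enters these counts with both, at equal and opposite shifts, so they are not counts of independent units. The gene was chosen for its difference in this same contrast, so the fit is a description and no support. An exact permutation test of 2 against 2 libraries cannot give a two-sided p below 0.333. The split between the rows rests on the short stretch in which they differ, and the part of this estimate in the shift was not tested.

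**Figure D2:**
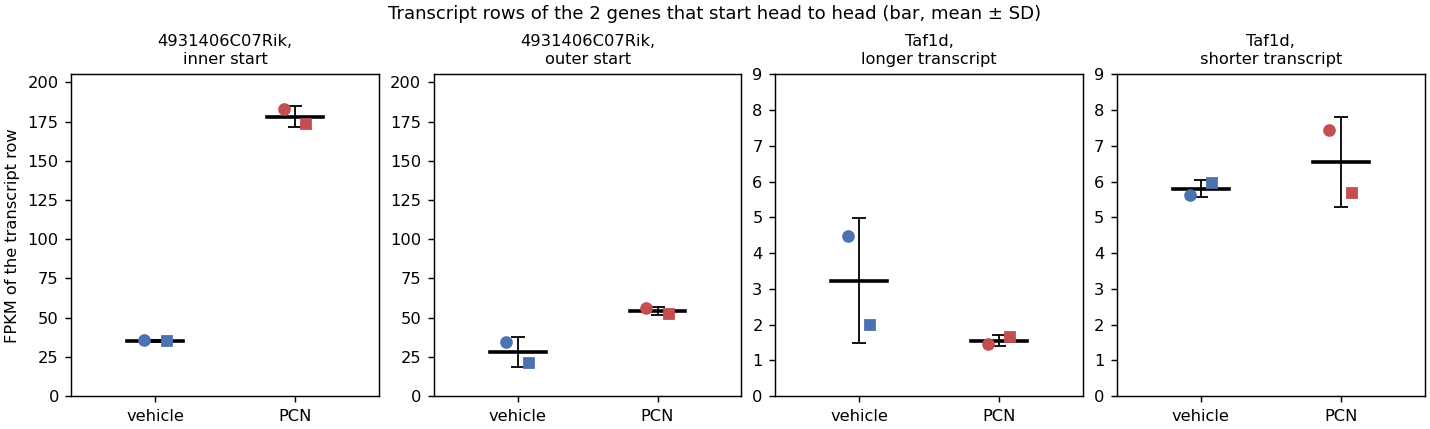
FPKM of the transcript rows of 4931406C07Rik and Taf1d in each library, from 0, with the same axis range for both rows of a gene; the longer and shorter Taf1d transcripts are ENSMUST00000034415 and ENSMUST00000164079. Circles are replicate 1, squares replicate 2, and bars the mean ± SD (n = 2). The inner-start row is the one with the widest gap between the groups, 35.2 ± 0.634 against 178 ± 6.54 FPKM.

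Smco4 was near 0 in vehicle and present in PCN. Its single row had 0.00197 and 0.000301 FPKM in the vehicle libraries against 7.26 and 7.25 in the PCN libraries. The PCN libraries thus differed from each other by far less than from vehicle. The difference on the log2(FPKM + 1) scale was 3.04 ± 0.18 (SE), rank 5 of 11103, and with vehicle near 0 it was set by the pseudocount of 1 (3.95 at 0.5 and 6.18 at 0.1). In the PCN libraries 4931406C07Rik was 32.9 and 31.1 times as high as Smco4 in FPKM. Below 0.01 FPKM in both vehicle libraries and at 1 FPKM or more in both PCN libraries were 11 of the 11103 tested genes. Their PCN means were 2.27 to 7.26 FPKM, and the filter on the mean over all libraries bounds the lower end. Smco4 had the highest. It was chosen for its higher values in PCN and passed the filter through them, so its ranks are description only. The opposite pattern was found in 8 genes.

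The Smco4 row was matched to ENSMUST00000178999, one of 3 protein-coding Smco4 transcripts in the annotation. The deposited locus of the row runs from 15493041 to 15545261, and the row's own start was not given. In the annotation the matched transcript starts at 15520859, has 3 exons and carries its 177 coding bases within the last of them. It shares 799 of its 820 exonic bases with the transcript that starts at 15505487 and 796 with the one that starts at 15493432. No row was matched to the other Smco4 transcripts. The file holds rows whose larger group mean is above 1 FPKM, so it cannot be seen here whether they were at lower levels in vehicle or PCN, and the gene's total in vehicle may be above the value given. The start of the matched transcript lies 219.3 kb from the inner start of 4931406C07Rik.

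In the genes beside 4931406C07Rik the groups overlapped. Taf1d had 10.1 and 7.96 FPKM in vehicle against 8.90 and 7.32 in PCN. Its means were 9.03 ± 1.51 and 8.11 ± 1.12, a log2 difference of -0.14 ± 0.17 (SE), and the groups overlapped. Med17 had 7.85 and 7.99 FPKM in vehicle against 8.86 and 7.64 in PCN. Its means were 7.92 ± 0.0987 and 8.25 ± 0.858, a log2 difference of 0.05 ± 0.14 (SE), and here too the groups overlapped. Among the 4 members, both PCN libraries were above both vehicle libraries in 2, which are those chosen for it, as in 21.1% of all tested genes.

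Relative to Taf1d, the gene that starts next to it, 4931406C07Rik had 6.95 and 7.01 times the FPKM in vehicle and 26.8 and 30.8 times in PCN. The outer-start row alone had 3.42 and 2.64 times the FPKM of Taf1d in vehicle and 6.29 and 7.16 times in PCN, so this ratio too was higher in both PCN libraries. Of the Taf1d rows, the one matched to ENSMUST00000164079 had 5.63 and 5.98 FPKM in vehicle against 7.45 and 5.67 in PCN. The row matched to ENSMUST00000034415 had 4.47 and 1.98 FPKM in vehicle against 1.45 and 1.65 in PCN, with its widest gap between the vehicle libraries themselves. These transcripts share 902 exonic bases. Of the Med17 rows, one had 7.16 and 7.61 FPKM in vehicle against 7.76 and 6.62 in PCN. The other had 0.687 and 0.380 FPKM in vehicle against 1.09 and 1.02 in PCN. Row numbers on chromosome 9 fall into a pair of runs, and 80.7% of rows of plus-strand genes were in the first and 79.5% of rows of minus-strand genes in the second. The lower Med17 row was in the first run although the gene is on the minus strand. Whether the libraries keep strand was not given.

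To see how far the difference reached, all protein-coding genes within 1000000 bases of the members were taken by position. Of 19 such neighbours 10 had values. In the fit over all genes, 0 of the 10 passed the threshold (an adjusted p of 0.05 in limma), where 0.135% of all tested genes did, 0.0811% higher and 0.054% lower. At an unadjusted p under 0.05 there were 3, against 9.36% of all genes. Differences were positive in 5 and negative in 5, with a median of -0.0007 against 0.0029 for all genes. Both PCN libraries were above both vehicle libraries in 3 of the 10 and below in 3, against 21.1% and 19.1% of all genes.

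The neighbour with the highest positive difference was Vstm5 (ENSMUSG00000031937.7), which encodes a membrane protein with an immunoglobulin-type domain. It lies on the plus strand at 15239045 to 15259416, 935 bases from the end of Med17. Vstm5 had 22.5 and 20.9 FPKM in vehicle against 36.0 and 38.4 in PCN, and the groups did not overlap. The log2 difference was 0.75 ± 0.09 (SE), a size that 1.64% of all genes reached or passed upwards, and the adjusted p of limma was 0.0903. When only genes averaging 5 FPKM or more were fitted the adjusted p of limma was 0.0465, and over all alternatives for the gene sum it ranged from 0.0465 to 0.561, with a positive difference each time. Most of its FPKM came from 1 row, which had 17.6 and 18.0 in vehicle against 36.0 and 38.4 in PCN. The other row had 4.86 and 2.90 FPKM in vehicle, was listed at 0 in both PCN libraries, shared its value with another gene in 1 library and was numbered in the run that mostly holds rows of minus-strand genes. Med17, which lies between Vstm5 and 4931406C07Rik, had a difference of 0.05 as given above.

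The other neighbours past an unadjusted p of 0.05 missed the adjusted threshold by more. Panx1, which encodes a membrane channel that releases ATP, had 16.3 and 16.6 FPKM in vehicle against 22.1 and 20.3 in PCN (log2 difference 0.34 ± 0.10 SE, limma adjusted p = 0.383). Amotl1, which encodes a junction protein of the angiomotin family, had 7.59 and 5.19 FPKM in vehicle against 2.44 and 0.00795 in PCN (log2 difference -1.97 ± 0.60 SE, limma adjusted p = 0.418). Its PCN libraries were far from each other, and the difference was -2.85 without PCN replicate 1, -1.08 without PCN replicate 2, -3.61 at a pseudocount of 0.1 and -3.04 with the smooth muscle covariate. For the remaining neighbours, Sesn3, Endod1, Cwc15, Fut4, Ankrd49, Mre11a and Slc36a4, log2 differences lay between -0.20 and 0.20. On the far side of Smco4, Slc36a4 was the first gene with values (1.97 and 2.74 FPKM in vehicle against 1.58 and 2.25 in PCN). Deup1, Mtnr1b and Fat3 on that side had no row and were not analysed here.

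**Figure D3:**
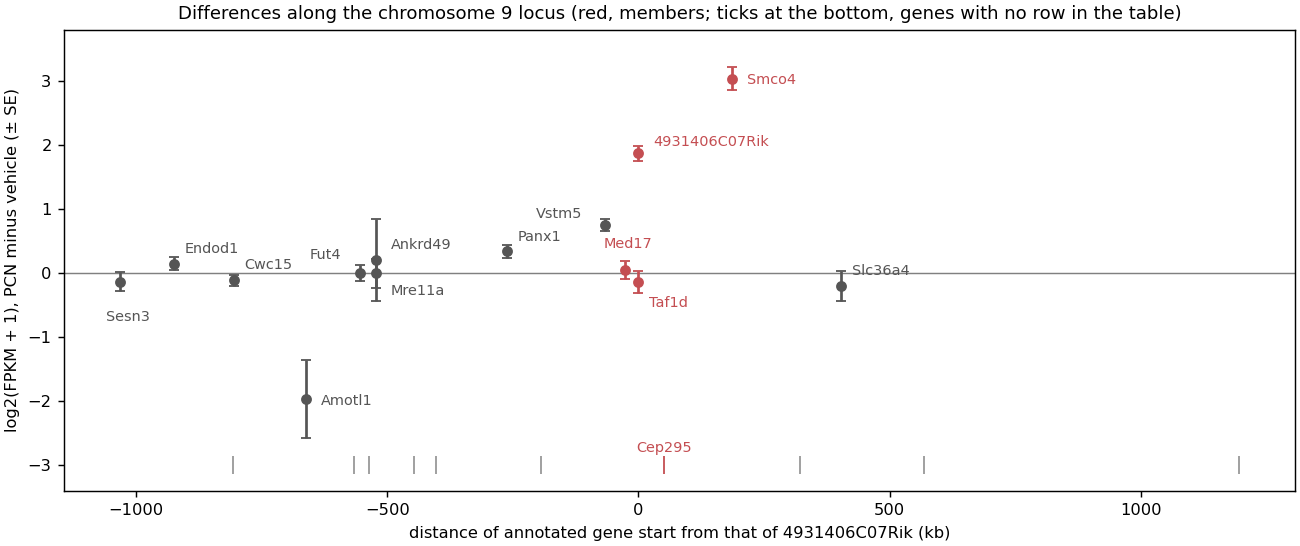
Difference in log2(FPKM + 1) between PCN and vehicle (± SE) for each gene with values against the distance in kb of its annotated start from that of 4931406C07Rik; red points are members, grey points neighbours, and ticks at the bottom genes with no row. Smco4 (3.04) and 4931406C07Rik (1.87) stand above Taf1d (-0.14) and Med17 (0.05), and Vstm5 is at 0.75.

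**Figure D4:**
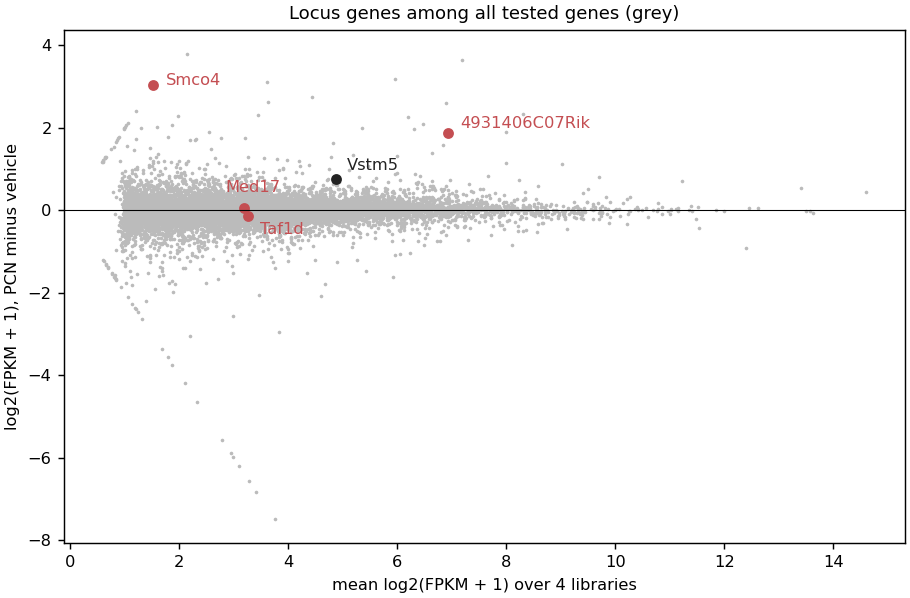
Difference in log2(FPKM + 1) between PCN and vehicle against mean log2(FPKM + 1) over 4 libraries for all 11103 tested genes (grey), with members in red and Vstm5 in black. Smco4 has a low mean level and 4931406C07Rik a high one, and Taf1d and Med17 lie in the band around 0.

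The complexes in which the proteins of the flanking genes work were also examined. Of the 5 genes of selectivity factor 1, which include Taf1d, 0 passed the threshold. The median log2 difference was -0.14, which is the value of Taf1d itself. Both PCN libraries were below both vehicle libraries in 2 of the 5 and above in 1, against 19.1% and 21.1% of all genes. Tbp, the TATA-binding subunit that selectivity factor 1 shares with other polymerases, had 8.29 and 8.56 FPKM in vehicle against 6.15 and 6.30 in PCN (limma adjusted p = 0.460). Of 10 tested RNA polymerase I genes 0 passed (median 0.02), and the most abundant were Polr1d (50.6 and 45.8 FPKM in vehicle, 47.6 and 42.8 in PCN) and Ubtf (34.2 and 32.8, then 33.1 and 33.8). Of 33 Mediator genes, which include Med17, 0 passed (median -0.01), with 16 positive and 17 negative differences. Med8 had 37.7 and 41.0 FPKM in vehicle against 41.9 and 34.7 in PCN. Med28 had 27.8 and 22.3 in vehicle against 23.2 and 19.5 in PCN. Of 14 tested genes of centriole assembly, the process in which Cep295 takes part, 0 passed (median -0.10). Poc1b had 7.34 and 7.24 FPKM in vehicle against 6.27 and 8.22 in PCN. Cep57 had 6.40 and 6.64 in vehicle against 6.15 and 5.38 in PCN. Of the 4 genes named Smco, Smco4 was the one with values. In limma, an unadjusted p under 0.05 was found for 1, 0, 0 and 2 genes of these lists in turn, against 9.36% of all genes, and 0.135% of all genes passed the threshold. The 2 were centriole genes, named after their values were seen. Cep350 had 5.69 and 6.59 FPKM in vehicle against 2.31 and 2.35 in PCN (log2 difference -1.10 ± 0.16 SE, limma adjusted p = 0.137). Cep44 had 3.60 and 4.48 in vehicle against 1.498 and 0.489 in PCN (-1.38 ± 0.31 SE, limma adjusted p = 0.252). Of the 14 centriole genes 5 were lower in both PCN libraries than in both vehicle libraries and 1 was higher, against 19.1% and 21.1% of all genes.

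By contrast, 22 of 22 tested genes known as PXR targets had positive differences, as had 5617 of all 11103 genes, with a median of 1.16 against 0.0029 for all genes. An unadjusted p under 0.05 was found for 17, against 9.36% of all genes. Past the threshold were 2, the cytochrome P450 gene Cyp2c66 (0.384 and 1.55e-06 FPKM in vehicle, 19.9 and 11.9 in PCN) and the glutathione transferase gene Gsta1 (36.6 and 28.9, then 184.6 and 138.9), against 0.0811% of all genes higher. Both have close relatives whose reads could be split between them. Without vehicle replicate 1, 3 passed, and without any one of the other libraries 0 did. This list was written with these results known and is not independent evidence.

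The genes with profiles most like those of the members were found by Euclidean distance of log2(FPKM + 1) over the 4 libraries, each gene set relative to its own vehicle mean. For Smco4, near 0 in vehicle, the size of the difference is set by the pseudocount of 1 (3.04, against 6.18 at 0.1), so its neighbours on this scale rest on that choice. Nearest to Smco4 was B3galt5, a beta-1,3-galactosyltransferase gene on chromosome 16, at a distance of 0.106 (3.15 and 3.09 FPKM in vehicle, 34.7 and 34.8 in PCN). Next were the cytochrome P450 gene Cyp3a11 (0.653), the glutathione transferase gene Gstm3 (0.790), the calcium-binding protein gene S100g (0.871) and Sptssb (1.09), a gene of serine palmitoyltransferase. Nearest to 4931406C07Rik was the beta-defensin gene Defb37 (0.151), at 42.7 and 35.2 FPKM in vehicle against 157.1 and 153.7 in PCN. The alkaline phosphatase gene Akp3 (0.197), 4930558K02Rik (0.334), the glutathione transferase gene Gsta4 (0.359) and the scaffold protein gene Ksr1 (0.362) followed. Akp3 had 0.364 and 0.129 FPKM in vehicle against 4.34 and 3.51 in PCN, so likeness on this scale does not mean like levels. With 4 libraries in 2 groups these distances mostly compare the size of the difference.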

How the data were processed

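Total RNA of mouse ileum was sequenced after preparation with a SMARTER kit, per the labels. The authors deposited FPKM per transcript, on build mm10. The methods describe colon libraries and another genome. For ileum, aligner and quantifier are not given in the sources used here. Row identifiers have the form that Cufflinks writes, so a value is an estimate that divides reads between transcripts, and a listed 0 can be a failed estimate. The table held 21160 transcript rows, each with a larger group mean above 1 FPKM. Column totals ran from 481925 to 550832 FPKM, and read numbers are unknown. From the commonest ratio of low values to those of vehicle replicate 1, 1 read added 1.34 times the FPKM in PCN replicate 1 and 1.47 times in the other PCN library, so these may be shallower. For vehicle replicate 2 the commonest ratio was 0.941, from a lower peak of 29 values, against 124 in PCN replicate 1 and 47 in PCN replicate 2. A value identical to one of another gene in the same library was found for 17.4% of rows, and for 0 rows of the members.

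FPKM were summed per gene. Genes averaging 1 FPKM or more entered limma 3.58.1 under R 4.3.3, which modelled log2(FPKM + 1) with a trend of variance on level and no replicate block. Benjamini-Hochberg adjustment covered all genes tested. The scale understates the change of low genes. Positions came from GENCODE M21 and transcripts were matched by identifier without version. Members and lists were chosen with earlier results of these data known. Named genes were the members, all neighbours, from each list those past the threshold (4 at most) or otherwise the 2 most abundant, and the 5 nearest profiles to each of Smco4 and 4931406C07Rik. The procedure was run on data simulated with independent normal deviations of the fitted spread. That run does not show how it performs on FPKM that divide reads between transcripts. Alternatives changed the pseudocount, filter, scaling, trend, block, covariate and libraries, and tested transcript rows. The fit of a row against the other rows of its gene was added after seeing the data.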

Additional observations from a re-analysis of the deposited data

How the results depend on the processing

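Smco4 and 4931406C07Rik, given as a description, had a positive difference under every alternative in which they were fitted. For Smco4 the log2 difference was 6.18 at a pseudocount of 0.1, 3.04 with the smooth muscle covariate, 3.04 among transcript rows and 3.04 to 3.05 without single libraries. It was not fitted among genes averaging 5 FPKM or more. For 4931406C07Rik it was 1.87 without a trend, 1.48 with the covariate, 0.98 for the outer-start row and 1.71 to 2.04 without single libraries. Taf1d had -0.29 to 0.019 without single libraries (above 0 without vehicle replicate 1) and 0.14 for its row matched to ENSMUST00000164079. Med17 had -0.045 to 0.14 (below 0 without PCN replicate 1) and -0.036 for its main row. The second Vstm5 row had -2.26. In the comparison over all genes 9 were higher and 6 lower. These counts were 34 and 22 among genes averaging 5 FPKM or more, where 1 neighbour (Vstm5) and 10 known PXR targets were higher. With a replicate block they were 39 and 21, with 11 PXR targets. Whether the replicate numbers pair the libraries was not given (correlation of their deviations 0.03 over genes). Counts were 5 higher at a pseudocount of 0.1, 2 and 0 without a trend (941 genes at an unadjusted p under 0.05), 0 and 0 with the covariate (783), and 1 and 0 among transcript rows (1627). Without single libraries they were 0 to 8 higher and 0 to 12 lower (851, 783 and 772 genes at an unadjusted p under 0.05 where limma called 0, without vehicle replicate 2, PCN replicate 1 and PCN replicate 2). Higher PXR targets were 1 at a pseudocount of 0.5, 0 at 0.1, without a filter, without a trend and with the covariate, and 0 to 3 without single libraries. The cause of these changes was not tested. Each fit without a library had 1 residual degree of freedom, and the 8 higher and 12 lower genes were those without vehicle replicate 1.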
